A study of Mus musculus with 17 samples.

Results

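The levels of 10 imprinted genes were followed in immunopanned mouse astrocytes, which were Meg3, Rian, Mirg, Dlk1, Peg3, Plagl1, Cdkn1c, Ndn, Grb10 and H19. They were chosen by gene symbol, with earlier results of the same 17 libraries in view, and are 10 of the 56691 gene rows of the count table. Their levels are therefore given as a description. All cells came from brains of C57BL/6 mice at postnatal day 2, taken without olfactory bulbs and cerebellum, and were grown in serum-free medium. The cell suspension was passed over dishes that removed cells carrying CD45 or the O4 antigen and then over a dish that retained cells carrying HepaCAM, an astrocyte adhesion protein. In the SAG experiment, SAG (a small molecule that activates Smoothened and so the sonic hedgehog pathway) was given at 500 ng/ml from day 3 in vitro for 3 d (3 libraries), and DMSO, its solvent, to controls (3 libraries). In the FGF experiment, FGF2 (4 libraries) or FGF10 (3 libraries), secreted growth factors of the fibroblast growth factor family, was given at 50 ng/ml from day 2 in vitro for 7 d, and PBS to controls (4 libraries). No group carried a transgene or mutation, and in an inbred strain the reads cannot be assigned to a parental copy.

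An imprinted gene is expressed mainly from the copy inherited from 1 parent, and DNA methylation laid down in the germ line marks which copy that is. Meg3, Rian and Mirg are long noncoding RNAs transcribed from the maternal chromosome in a shared cluster, and Rian and Mirg host small nucleolar RNAs and microRNAs, respectively. Dlk1, a transmembrane ligand related to the Notch ligands, is expressed from the paternal chromosome of the same cluster. Peg3 and Plagl1 (also called Zac1) encode paternally expressed zinc finger proteins, and Plagl1 is known as a transcription factor that acts on other imprinted genes. Ndn encodes necdin, a paternally expressed protein of the MAGE family. Cdkn1c encodes p57Kip2, a maternally expressed inhibitor of cyclin-dependent kinases, and H19 is a maternally expressed noncoding RNA that lies beside Igf2. Grb10 encodes an adaptor of the insulin and IGF receptors that is expressed from the maternal copy in most tissues and from the paternal copy in neurons.

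On the GRCm38 build (GENCODE vM21 annotation), Meg3 lies at chr12:109541001-109571726 on the plus strand. Dlk1 (chr12:109452823-109463336) ends 77.7 kb before it, and Rian (chr12:109603940-109661716) and Mirg (chr12:109729764-109749460) follow on the same strand. On chromosome 7 lie Peg3 (chr7:6703892-6730431, minus strand), Ndn (chr7:62346569-62350262, plus strand) and H19 (chr7:142575529-142578143, minus strand). Cdkn1c (chr7:143458339-143461050, minus strand) lies on chromosome 7 as well, in a domain next to that of H19. Plagl1 lies at chr10:13060504-13131694 on the plus strand and Grb10 at chr11:11930508-12038683 on the minus strand.

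The promoter windows of 4 members are shown because 3 of them (Meg3, Plagl1 and Grb10) belong to the genes whose levels separated replicates of the FGF experiment, and the fourth (Peg3) belongs to a gene whose levels did not. RefSeq windows on GRCm38.p6 reach from 250 bases before to 50 bases after an annotated start, and 8 of 10 members had at least 1. Meg3 and Grb10 have a second window each that is not shown. Capitals mark GGGGCCCC, a motif known for PLAGL1, or TGACGTCA, the cyclic AMP response element. Each motif reads the same on both strands, and the second was chosen after the sequences were seen.
Meg3 (chr12:109540746-109541045, plus strand): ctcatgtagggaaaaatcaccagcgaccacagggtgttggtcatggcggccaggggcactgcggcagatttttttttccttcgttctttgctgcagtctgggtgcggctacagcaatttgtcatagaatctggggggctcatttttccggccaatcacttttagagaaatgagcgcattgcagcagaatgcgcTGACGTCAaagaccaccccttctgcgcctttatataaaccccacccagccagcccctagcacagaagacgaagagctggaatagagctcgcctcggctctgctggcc
Plagl1 (chr10:13090582-13090881, plus strand): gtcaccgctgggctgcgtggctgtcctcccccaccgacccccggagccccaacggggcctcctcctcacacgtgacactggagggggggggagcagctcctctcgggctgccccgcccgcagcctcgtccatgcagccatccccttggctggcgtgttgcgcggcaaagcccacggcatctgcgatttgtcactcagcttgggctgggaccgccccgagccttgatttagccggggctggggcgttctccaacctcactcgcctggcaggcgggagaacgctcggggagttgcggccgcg
Grb10 (chr11:12037371-12037670, minus strand): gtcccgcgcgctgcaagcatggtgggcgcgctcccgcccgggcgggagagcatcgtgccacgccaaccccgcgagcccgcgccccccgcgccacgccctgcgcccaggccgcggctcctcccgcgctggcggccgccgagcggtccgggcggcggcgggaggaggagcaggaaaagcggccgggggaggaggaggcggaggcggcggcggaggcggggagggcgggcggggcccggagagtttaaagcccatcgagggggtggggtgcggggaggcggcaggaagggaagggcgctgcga
Peg3 (chr7:6730370-6730669, minus strand): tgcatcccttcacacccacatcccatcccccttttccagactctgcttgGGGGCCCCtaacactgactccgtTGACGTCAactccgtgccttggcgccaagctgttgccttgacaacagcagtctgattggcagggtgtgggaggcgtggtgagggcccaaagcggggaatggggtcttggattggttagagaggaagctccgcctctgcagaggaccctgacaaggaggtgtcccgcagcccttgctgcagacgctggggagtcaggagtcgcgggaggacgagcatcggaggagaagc
The Meg3 window held 1 TGACGTCA, which begins 57 bases before the start, and no GGGGCCCC. The Peg3 window held 1 of each, and the windows of Plagl1 and Grb10 held neither. Of 32851 RefSeq windows of this length, 1.79% held TGACGTCA and 1.08% held GGGGCCCC. The Grb10 window held 45 CG dinucleotides, a number that 1.93% of all windows reached, against 26 in Plagl1 and 13 each in Meg3 and Peg3.

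Total counts ran from 17481727 to 68342287 per library, so that 1 CPM (the usual unit of read counts scaled to a common library total) stood for 17.4 to 67.1 reads. The libraries hold reads from the 3′ end of polyadenylated RNA, and levels are CPM after TMM scaling over all 17 libraries. The labelled cell type was checked with markers: all 8 astrocyte markers were detected, and their summed level ran from 3261 to 5297 CPM in the libraries. The 6 microglia or macrophage markers summed to at most 4.4 CPM in any library, with Csf1r and Aif1 at 0 reads in all. Neuron markers summed to 514 to 967 CPM and markers of the oligodendrocyte lineage to 1803 to 4265 CPM. Map2 made up most of the neuron sum, with means of 643 CPM in the SAG experiment and 674 and 659 CPM in replicates 1 and 2 and replicates 3 and 4 of the FGF experiment. Snap25, Syt1 and Stmn2 averaged at most 8.50 CPM in these sets of libraries. Other neuron markers were higher in replicates 1 and 2. Their means there were 60.5 CPM for Tubb3, 35.5 for Gad2, 28.8 for Dcx, 26.7 for Rbfox3 and 24.3 for Gad1. In the SAG experiment the means were 39.6 CPM for Tubb3, 20.9 for Rbfox3, 18.5 for Gad2 and at most 10.7 for Dcx and Gad1. In replicates 3 and 4 these markers averaged at most 13.6 CPM (Tubb3). Olig1 and Olig2 made up most of the other sum. In bulk RNA, fewer cells of a type and less RNA per cell cannot be told apart. Within each group of the FGF experiment, replicates 1 and 2 stood apart from replicates 3 and 4 over many genes. This split was noticed in these counts, the labels name no batch, and FGF10 has only replicate 3 in the second set.

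Meg3 was detected in every library and separated the replicate sets of the FGF experiment. In DMSO it stood at 232, 205 and 199 CPM in replicates 1 to 3, and in SAG at 177, 156 and 209.7 CPM. In PBS it stood at 384 and 338 CPM in replicates 1 and 2 but at 89.2 and 132 CPM in replicates 3 and 4. In FGF2 the 4 values were 369, 301, 72.8 and 73.8 CPM, and in FGF10 the 3 values were 294, 294 and 80.8 CPM. All 6 libraries of replicates 1 and 2 lay above all 6 of the SAG experiment, and all 5 of replicates 3 and 4 lay below them. The ratio of the mean of replicates 1 and 2 to that of the later ones was 3.26 in PBS, 4.57 in FGF2 and 3.63 in FGF10. The ranges of all 5 groups overlapped, with means of 212 ± 17.3 in DMSO, 181 ± 27.0 in SAG, 236 ± 147 in PBS, 204 ± 154 in FGF2 and 223 ± 123 in FGF10 (mean CPM ± SD, n = 3, 3, 4, 4 and 3).

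**Figure D1:**
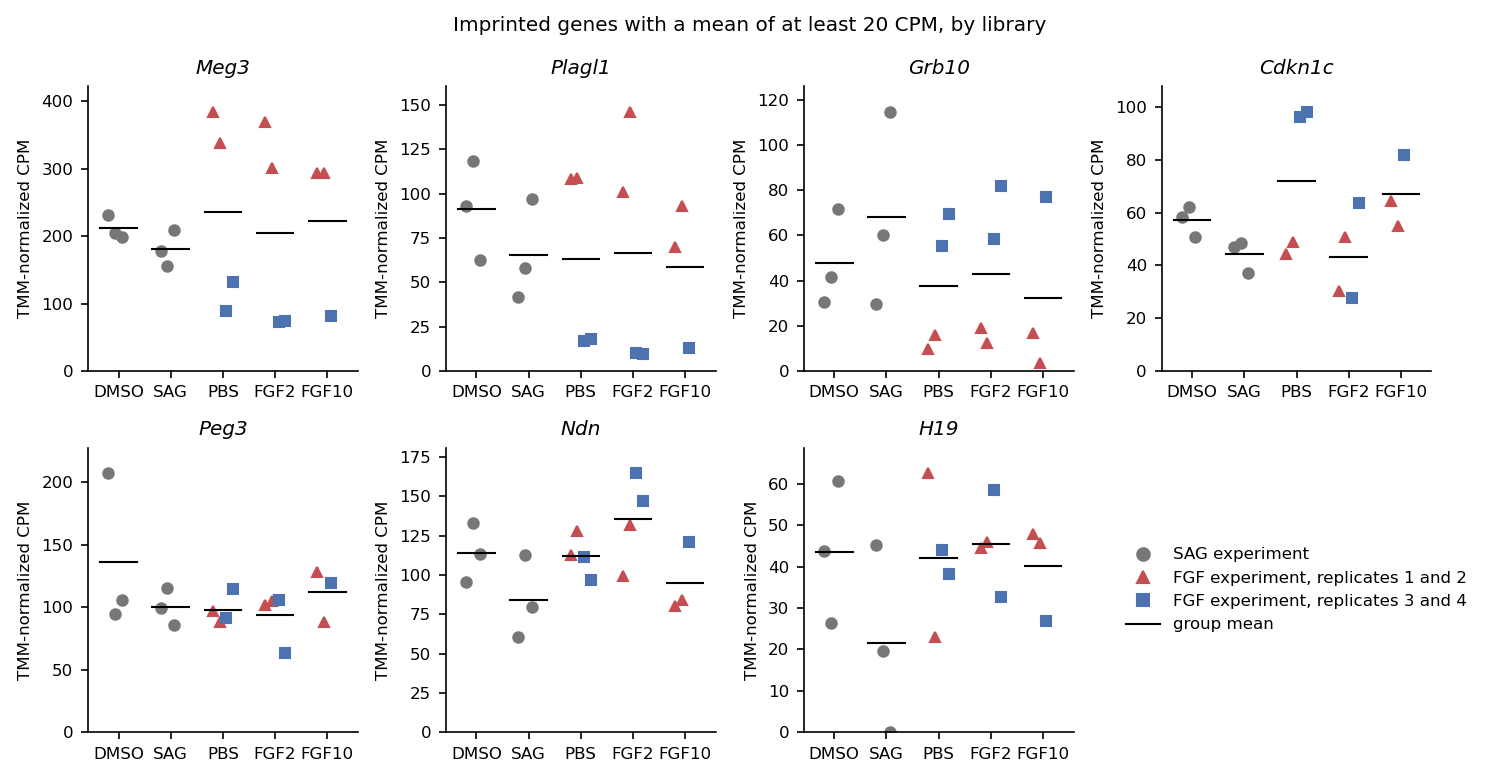
Levels of the 7 members with a mean of at least 20 CPM (y axis, TMM-normalized CPM) in the 5 groups (x axis), with 1 point per library and a line at the group mean. Meg3 and Plagl1 were higher and Grb10 lower in replicates 1 and 2 (triangles) than in replicates 3 and 4 (squares) of PBS, FGF2 and FGF10, while the points of Peg3 and H19 mixed.

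The other genes of the Meg3 cluster were sparse. Rian had 0 reads in 8 of 17 libraries, and its highest counts were 876 reads in FGF2 replicate 1 and 869 reads in PBS replicate 1. In the FGF experiment it reached 869, 445, 876 and 307 reads in 4 of the 6 libraries of replicates 1 and 2, against 66 reads in PBS replicate 3 and 0 in the other 4 of the later replicates. Mirg had 992 and 331 reads in PBS replicates 1 and 2 and 107 and 480 reads in FGF10 replicates 1 and 2. Outside these it had 55 reads in DMSO replicate 2 and 2 reads in FGF2 replicate 3, and 0 in the other 11 libraries. Rian and Mirg reads were thus found mostly in libraries where Meg3 was high, but FGF2 replicate 2, with Meg3 at 301 CPM, had no read of either. A library with 0 reads of Mirg allows up to 3 reads, a limit that covers counting error only.

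Dlk1, from the paternal copy, followed another order. It had 107, 220 and 958 reads in DMSO, 330, 376 and 598 reads in SAG, and 568, 314, 178 and 0 reads in PBS. In FGF2 the 4 counts were 107, 96, 0 and 30 reads, and in FGF10 the 3 counts were 13, 0 and 77 reads. Dlk1 was detected in all 6 libraries of the SAG experiment. Its CPM in FGF10 (0 to 2.01) did not overlap that in DMSO (2.20 to 25.4) or SAG (5.60 to 19.1), where 11.8% of 12986 genes and 14.2% of 12514 genes did not overlap either. Its CPM in FGF2 (0 to 5.5) did not overlap that in SAG, where 7.29% of 13058 genes did not. Treatment and experiment cannot be told apart in these pairs. Rtl1 and Dio3, the other paternally expressed protein-coding genes of this domain, had 0 reads in all 17 libraries. All 60 microRNA genes annotated between the start of Meg3 and the end of Mirg that have a row of their own stood at 0 reads, and 1 of 19 small nucleolar RNA genes there had reads (66 in all). The library method primes on poly(A) tails, which mature microRNAs lack.

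**Figure D2:**
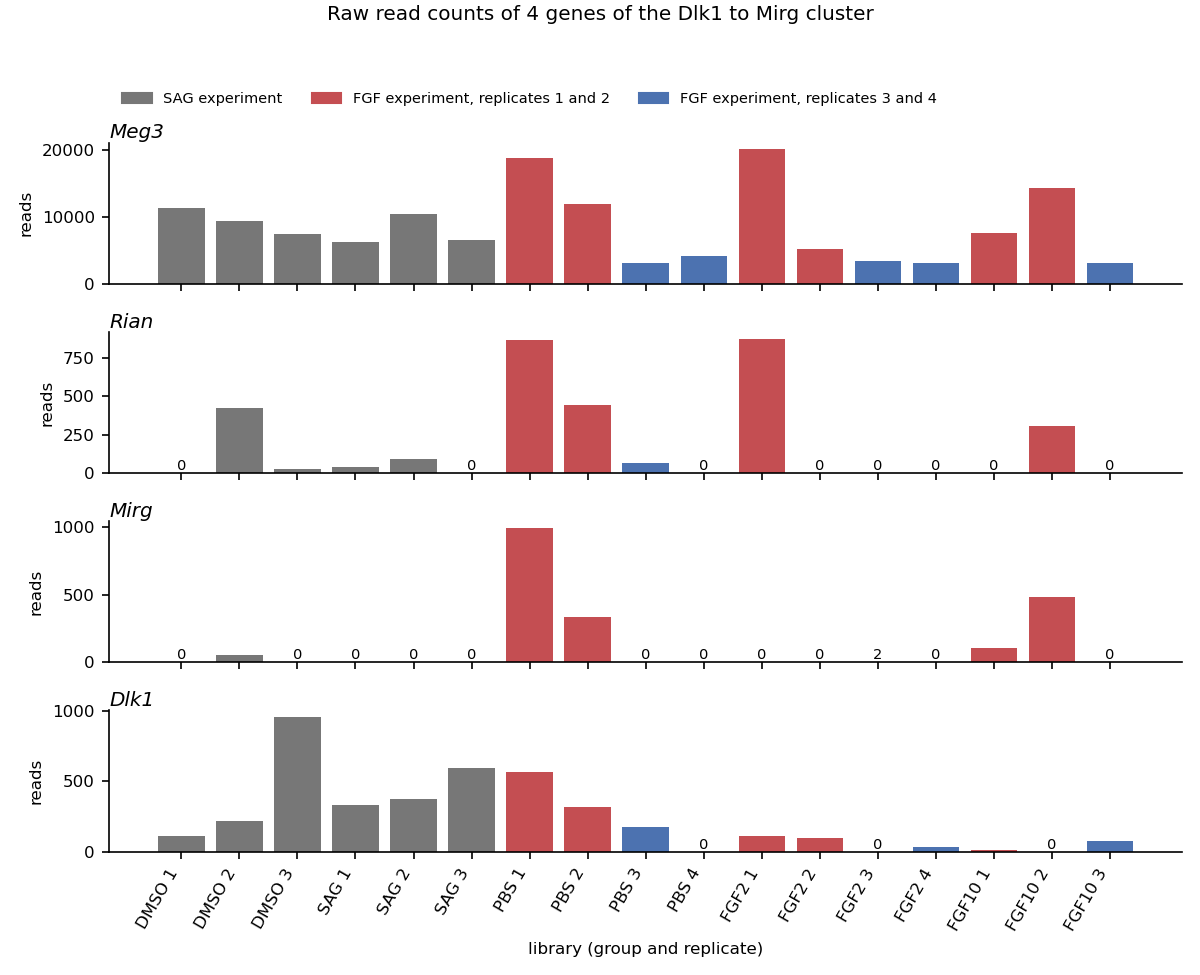
Raw read counts (y axis) of Meg3, Rian, Mirg and Dlk1 in the 17 libraries (x axis), with counts under 10 printed as numbers. Mirg had more than 2 reads in 5 libraries, 4 of them replicates 1 and 2 of PBS or FGF10, and Dlk1 had reads in all 6 libraries of the SAG experiment.

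Among the 3 members whose levels did not overlap between the replicate sets, Plagl1 gave the widest separation. In DMSO it stood at 93.1, 118 and 62.4 CPM and in SAG at 41.5, 58.3 and 96.7 CPM. In PBS the 4 values were 108, 109, 16.7 and 18.3 CPM, in FGF2 they were 101, 146, 9.83 and 9.39 CPM, and in FGF10 the 3 values were 70.0, 93.2 and 13.2 CPM. The libraries of replicates 1 and 2 overlapped those of the SAG experiment, whereas replicates 3 and 4 lay below both. The ratio of the means was 6.2 in PBS, 12.9 in FGF2 and 6.18 in FGF10.

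Grb10 moved the opposite way. It stood at 9.88, 15.9, 55.5 and 69.3 CPM in PBS, at 19.1, 12.2, 58.6 and 82.0 CPM in FGF2, and at 16.9, 3.67 and 77.0 CPM in FGF10. Replicates 3 and 4 were 4.85 times replicates 1 and 2 in PBS, 4.5 times in FGF2 and 7.5 times in FGF10. In the SAG experiment it stood at 30.7, 41.6 and 71.7 CPM in DMSO and at 29.8, 60.3 and 115 CPM in SAG. Here replicates 1 and 2 of the FGF experiment were the low libraries, below all 6 of the SAG experiment, and replicates 3 and 4 overlapped the latter.

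The remaining 4 members with at least 20 CPM overlapped between the sets over the 11 libraries. Peg3 lay between 88.2 and 128 CPM in the 6 libraries of replicates 1 and 2 and between 63.7 and 119.7 CPM in the 5 later ones. Ndn lay between 80.1 and 132 CPM and between 97.1 and 165 CPM, and H19 between 23.1 and 62.5 CPM and between 26.8 and 58.6 CPM. Within single groups some of them separated, and no share over all genes was computed for this. With 2 libraries against 2 or 1, nothing is read from these separations. Cdkn1c stood at 44.3 and 49.0 CPM in the first set and at 96.3 and 98.2 CPM in the second in PBS, and at 64.3 and 54.8 against 81.9 CPM in FGF10, but its FGF2 libraries overlapped, at 30.3 and 50.7 against 27.6 and 63.5 CPM. Ndn stood at 99.6 and 132 against 165 and 147 CPM in FGF2 and at 80.1 and 84.0 against 121 CPM in FGF10. In PBS Ndn separated the other way, at 112.8 and 128.2 against 111.5 and 97.1 CPM. H19 stood at 47.8 and 45.7 against 26.8 CPM in FGF10 and overlapped in PBS and FGF2.

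Fitted over the 11 libraries of the FGF experiment with the treatment as a covariate, replicates 3 and 4 differed from 1 and 2 by a log2 fold change of -1.91 (SE 0.16) for Meg3 and -3.00 (SE 0.28) for Plagl1. For Grb10 the log2 difference was 2.42 (SE 0.39). For Rian, with 0 reads in 4 of the 5 later libraries, it was -7.82 (SE 3.20, edgeR adjusted p = 0.243). The other values were 0.59 (SE 0.28) for Cdkn1c, 0.24 (SE 0.18) for Ndn, 0.0037 (SE 0.20) for Peg3, -0.19 (SE 0.33) for H19 and -1.28 (SE 2.61) for Dlk1. Meg3, Plagl1 and Grb10 passed an adjusted p under 0.05 in edgeR's quasi-likelihood test and did not overlap between the sets, 3 of the 9 members tested, where 4.38% of 12957 genes passed and 5.4% did not overlap. Since the members were chosen with this split known, nothing is read from that share. The split was itself seen in these counts, so the values of this fit describe it and test no condition. Mirg was not tested in this fit because its counts failed the filter. No member passed a test of whether the FGF2 difference itself differed between the sets (interaction term, 9 members, edgeR adjusted p of 0.997 to 1.00), where 0.0157% of 12744 genes passed.

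**Figure D3:**
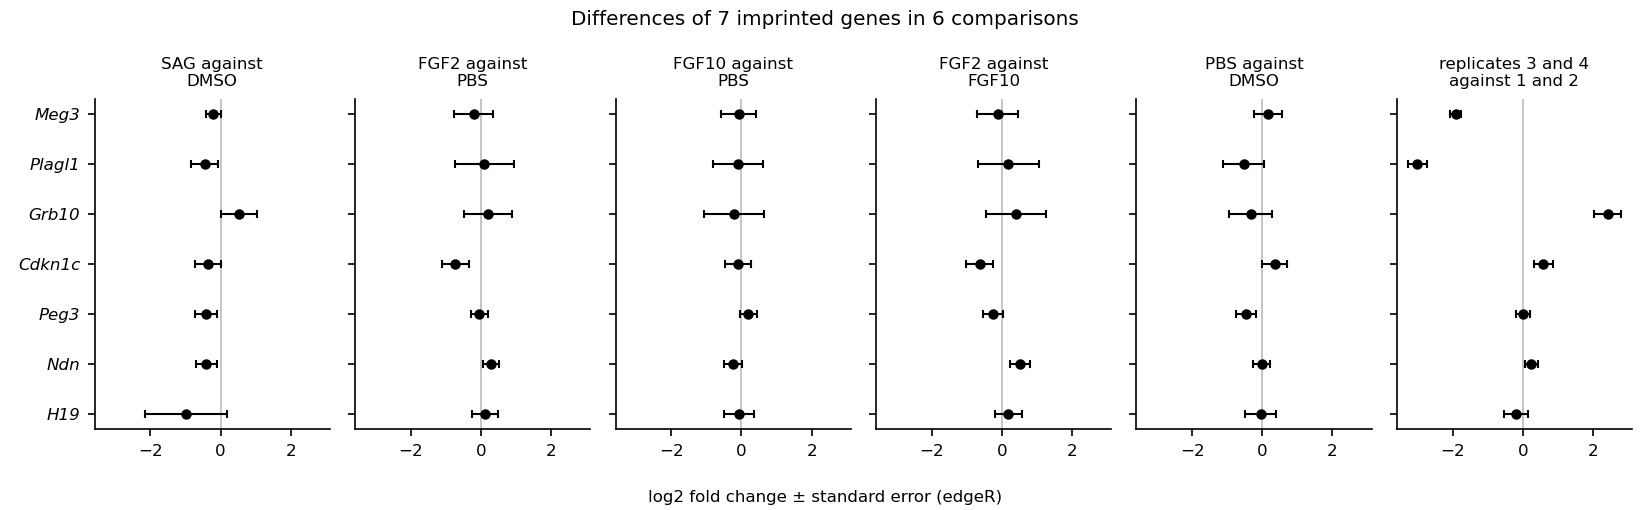
Log2 fold change with its standard error (x axis, edgeR) of 7 members (y axis) in 6 comparisons. In the panel of replicates 3 and 4 against 1 and 2, Meg3 (-1.91), Plagl1 (-3.00) and Grb10 (2.42) lie far from 0, and in the treatment panels the 7 members stay between -0.995 and 0.54.

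Markers of cell types and of the cell cycle moved with the sets. The calls below come from the same fit, in which 4.38% of 12957 genes passed, and describe a split seen in these counts. The 6 cell cycle genes summed to 164 to 348 CPM in replicates 1 and 2, to 913 to 1407 CPM in replicates 3 and 4 and to 170 to 369 CPM in the SAG experiment. Of these 6, 4 were called higher in replicates 3 and 4 (Mki67, Top2a, Cdk1 and Ccnb1), and Mki67 rose from a mean of 22.5 to 147 CPM. The 8 astrocyte markers summed to 4438 to 5297 CPM in replicates 1 and 2 and to 3261 to 3731 CPM in the later ones, with 4 called lower, among them Gfap (311 to 48.1 CPM), and Aldh1l1 called higher (212 to 364 CPM). The 8 markers of the oligodendrocyte lineage summed to 1803 to 2066 CPM and to 3276 to 4265 CPM. Olig1 (588 to 1609 CPM) and Olig2 (883 to 1815 CPM) made up most of these sums and were among those called (both higher). The means of Pdgfra (44.2 to 20.4 CPM), Sox10 (105 to 86.1 CPM) and Mbp (78.0 to 23.6 CPM) were lower, without a call. That of Cspg4 (13.8 to 15.8 CPM) was higher, also without a call, and Mog was not tested. The 4 ependymal markers summed to 315 to 516 CPM and to 78.7 to 205 CPM, with Foxj1 (335 to 141 CPM) and Rsph1 (23.8 to 0.88 CPM) called lower. The 10 neuron markers summed to 714 to 929.6 CPM and to 654 to 726 CPM, with Tubb3 and Gad2 called lower and Slc17a6 at 0 reads in all libraries. The 7 endothelial or mural markers summed to 18.2 to 74.7 CPM and to at most 18.0 CPM, with Pdgfrb called lower and Cldn5 and Cdh5 at 0 reads in all libraries. The 7 fibroblast or meningeal markers summed to at most 19.5 CPM. The part of these markers in the differences of Meg3, Plagl1 and Grb10 was not tested.

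The gene most like Meg3 among the other 9 members was Plagl1. Over the 17 libraries, after the mean of each group was subtracted from log2 CPM, the 5 genes most like Meg3 among 6720 genes with a mean of at least 20 CPM were Timp2 (an inhibitor of metalloproteinases, Pearson r of 0.974), Plagl1 (0.964), Sparc (a secreted matrix protein, 0.963), Ahnak (a large scaffold protein, 0.957) and Malat1 (a nuclear long noncoding RNA, 0.951). These values rest on the split of the FGF libraries: mean levels in replicates 1 and 2 against 3 and 4 were 773 and 315 CPM for Timp2, 1985 and 561 CPM for Sparc, 133 and 23.9 CPM for Ahnak, and 34209 and 18670.5 CPM for Malat1. Since the libraries fall into clusters, Meg3 and Plagl1 were also compared within those of 6 libraries. Their log2 CPM, here without subtraction of group means, correlated with r = 0.69 (Spearman's rho 0.71) over the 6 libraries of the SAG experiment. Both genes had lower means in SAG than in DMSO, which enters that value. Over the 6 libraries of replicates 1 and 2, r was 0.22. For Meg3 and Grb10 the same values of r were -0.05 and 0.34. The 5 libraries of replicates 3 and 4 were too few for such a value. These correlations share depth, normalization and preparation, and are given as a description.

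**Figure D4:**
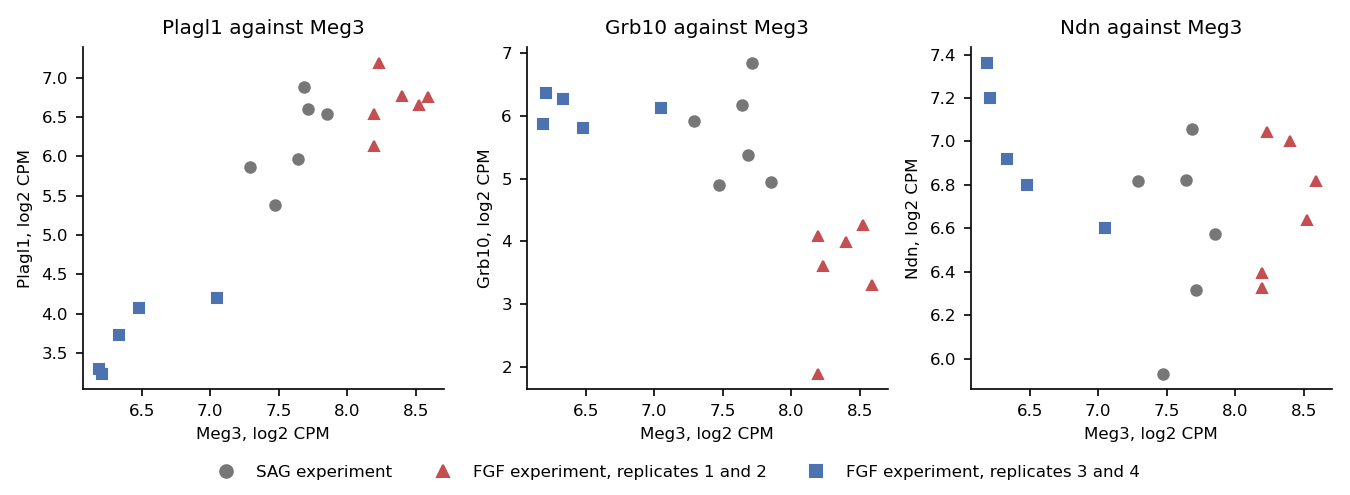
Log2 CPM of Plagl1, Grb10 and Ndn (y axes) against that of Meg3 (x axes), with 1 point per library. Replicates 3 and 4 of the FGF experiment (squares) form the cluster of low Meg3 with low Plagl1 and high Grb10, replicates 1 and 2 (triangles) the cluster of high Meg3 with low Grb10, and the SAG experiment (circles) lies between them on the Meg3 axis.

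**Figure D5:**
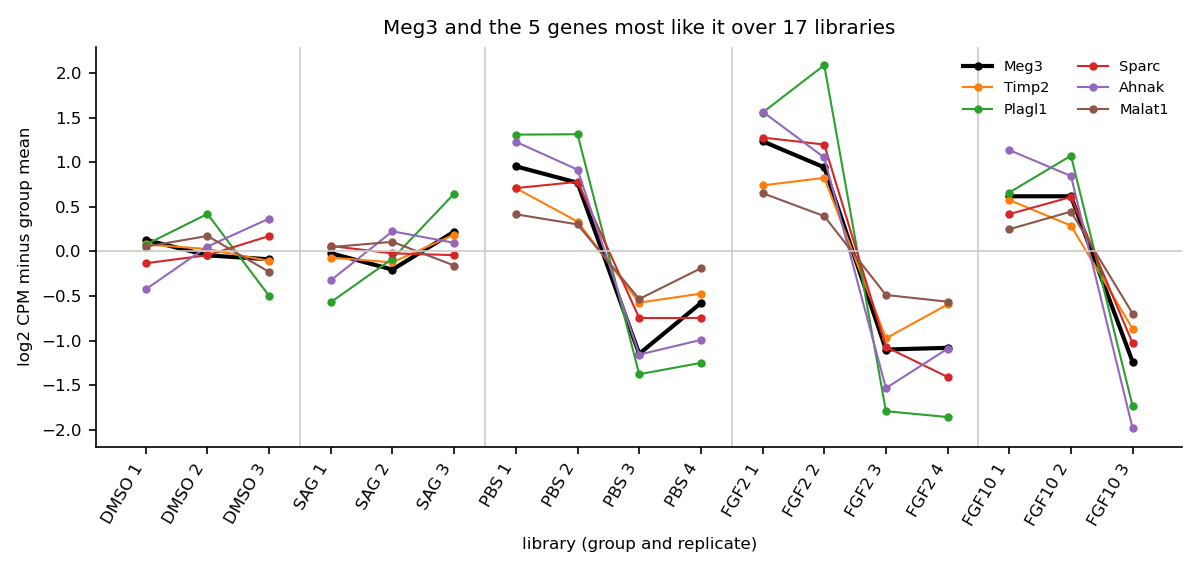
Log2 CPM minus the group mean (y axis) of Meg3 and the 5 genes most like it in the 17 libraries (x axis), with lines joining libraries of a group. In PBS, FGF2 and FGF10 all 6 genes lie above 0 in replicates 1 and 2 and below 0 in replicates 3 and 4.

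Whether activation of the sonic hedgehog pathway changes astrocyte expression was asked by comparing SAG with DMSO. None of the 9 members tested was called (edgeR, adjusted p under 0.05), where 0.0638% of 12538 genes were, and none had an unadjusted p under 0.05 (lowest 0.204). DESeq2's Wald test called 394 of 18636 genes and 0 members. The log2 fold changes were -0.20 (SE 0.21) for Meg3, -0.45 (SE 0.39) for Plagl1, -0.41 (SE 0.32) for Peg3, -0.41 (SE 0.30) for Ndn, -0.35 (SE 0.38) for Cdkn1c and 0.54 (SE 0.51) for Grb10. Of the 9 members, 7 lay below 0, and the median over the 9 was -0.41, against -0.02 over all genes tested. The share of all genes below 0 was not computed, and nothing is read from this direction. Cdkn1c was the 1 member without overlap, at 58.5, 62.1 and 50.6 CPM in DMSO and 46.9, 48.4 and 37.1 CPM in SAG, where 14.2% of the genes did not overlap. Its two-sided exact permutation p was 0.1, the smallest that 3 against 3 libraries allow. The sums of 4 marker lists did not overlap between these groups either. Those of the oligodendrocyte lineage were 1964 to 2384 CPM in DMSO and 3655 to 3857 CPM in SAG, those of neurons 757 to 967 and 514 to 720 CPM, those of ependymal cells 190 to 264 and 92.6 to 139 CPM, and those of endothelial or mural cells 20.2 to 28.3 and 7.64 to 16.2 CPM. The sums of astrocyte (4098 to 4374 and 3505 to 4174 CPM), cell cycle (170 to 256 and 238 to 369 CPM), microglia or macrophage, and fibroblast or meningeal markers overlapped. Map2 made up most of the neuron sums and Foxj1 (mean of 149 CPM in the SAG experiment) most of the ependymal sums. Olig1 and Olig2 made up most of the oligodendrocyte lineage sums. No change in a cell type is read from these sums, and their part in the Cdkn1c values was not tested.

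H19 shows how single libraries decided such values. It stood at 43.7, 26.4 and 60.7 CPM in DMSO and at 45.2, 19.6 and 0.13 CPM in SAG, the last from 4 reads where no other library had fewer than 802. Its log2 fold change was -0.995 (SE 1.17), and -0.42 without SAG replicate 3. Grb10 had its highest level of all libraries in the same SAG replicate 3 (115 CPM), and without it the log2 fold change was -0.08. Peg3 stood at 207 CPM in DMSO replicate 1, against 94.8 to 106 CPM in the other 2, and its log2 fold change without that library was 0.03.

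FGF2 and FGF10 were compared with the same 4 PBS libraries. With FGF2, none of the 9 members tested was called, as was 0% of 12744 genes (223 genes had an unadjusted p under 0.05, and DESeq2 called 123 genes and 0 members). The log2 fold change was -0.20 (SE 0.56) for Meg3, 0.09 (SE 0.84) for Plagl1 and 0.20 (SE 0.68) for Grb10, each group holding both replicate sets. With the set as a term of the fit these became -0.34 (SE 0.19) for Meg3, -0.33 (SE 0.30) for Plagl1 and 0.24 (SE 0.36) for Grb10, each with an edgeR adjusted p of 1.00. Meg3 differed by -0.10 within replicates 1 and 2 and by -0.59 within replicates 3 and 4. Cdkn1c had the lowest unadjusted p of the members (0.0817), with a log2 fold change of -0.73 (SE 0.39) and mean levels of 43.0 ± 17.1 CPM in FGF2 and 71.9 ± 29.3 CPM in PBS (SD, n = 4 each). Its difference was -0.64 (SE 0.35) with the set as a term, -0.19 within replicates 1 and 2 and -1.09 within replicates 3 and 4. Ndn lay at 136 ± 27.6 CPM in FGF2 and 112 ± 12.7 CPM in PBS, with a log2 fold change of 0.28 (SE 0.23). No member was free of overlap, where 2.45% of the genes were.

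With FGF10, none of the 10 members was called, as was 0% of 13309 genes (305 with an unadjusted p under 0.05, 102 called by DESeq2, 0 of them members), and no member was free of overlap, where 4.79% of the genes were. The log2 fold change was -0.07 (SE 0.50) for Meg3, -0.09 (SE 0.71) for Plagl1 and -0.21 (SE 0.87) for Grb10. With the set as a term it was -0.35 (SE 0.19) for Meg3, -0.40 (SE 0.30) for Plagl1 and -0.06 (SE 0.53) for Grb10, and within replicates 1 and 2 it was -0.30, -0.41 and -0.33. With 1 FGF10 library in the second set, no value within replicates 3 and 4 was fitted. The median log2 fold change of the members was -0.05 with FGF2 and -0.15 with FGF10, against 0.0011 and -0.0016 over all genes tested.

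FGF2 and FGF10 were set against each other at the same dose and time. None of the 8 members tested was called, as was 0% of 13493 genes (324 with an unadjusted p under 0.05, 91 called by DESeq2, 0 of them members), and 4.9% of the genes but no member were free of overlap. The members with the lowest unadjusted p were Ndn, with a log2 fold change of 0.52 (SE 0.28), and Cdkn1c, with -0.63 (SE 0.38). Ndn stood at 99.6, 132, 165 and 147 CPM in FGF2 and at 80.1, 84.0 and 121 CPM in FGF10, so that replicate 1 of FGF2 lay within the FGF10 range. Rian and Mirg were not tested here.

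The vehicle groups PBS and DMSO differed in solvent, days in culture and experiment, which cannot be told apart. None of the 10 members was called, as was 0% of 13271 genes (580 with an unadjusted p under 0.05, 194 called by DESeq2, 0 of them members), and no member was free of overlap, where 6.44% of the genes were. The log2 fold change of PBS against DMSO was 0.16 (SE 0.40) for Meg3, -0.53 (SE 0.58) for Plagl1, -0.46 (SE 0.29) for Peg3 and -0.33 (SE 0.61) for Grb10. For Meg3 this mean hides 2 directions, since the DMSO libraries (199 to 232 CPM) lay below PBS replicates 1 and 2 (338 and 384 CPM) and above PBS replicates 3 and 4 (89.2 and 132 CPM). Over the 5 groups, 5 of 100 pairs of groups of a member did not overlap (3 for Dlk1 and 2 for Cdkn1c). Of all genes tested, 2.45% to 14.2% did not overlap in these pairs of groups (6.96% for FGF2 and DMSO and 7.92% for PBS and SAG, where no member was free of overlap). Of the 40 pairs of neighbours in the order of the group means, 1 did not overlap. Such neighbours are the closest groups by construction. No share over all genes was computed for them, and nothing is read from this count.

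Other imprinted genes were described from a list of 51 symbols, and whether each is imprinted in astrocytes was not tested. Of these, 11 had 0 reads in all 17 libraries, Igf2 among them, the growth factor gene whose neighbour H19 was detected in every library. A mean of at least 20 CPM was reached by 23, the highest by Nnat (a paternally expressed small membrane protein, 2772 to 7094 CPM) and Gnas (a G protein subunit, 1196 to 1798 CPM). In the domain of Cdkn1c, the paternal noncoding RNA Kcnq1ot1 ran from 87.3 to 178 CPM and Cd81 from 534 to 869.8 CPM, Tssc4 from 3.71 to 72.1 CPM and Osbpl5 from 4.07 to 53.3 CPM. Phlda2 and Kcnq1 were at 0, and Ascl2 and Slc22a18 had reads in 1 library each. In the domain of Ndn, Snrpn ran from 24.9 to 88.2 CPM, Snhg14 from 27.6 to 122 CPM, Peg12 from 7.22 to 124 CPM and Ube3a from 95.3 to 204 CPM, while Magel2 had reads in 1 library and Snurf in none. Snhg14 is antisense to Ube3a, and Kcnq1ot1 to Kcnq1, and since the strand setting of the counting is not given, reads of such partners may not be told apart. In the domain of Peg3, Usp29 reached 14.3 CPM, Zim1 reached 6.65 CPM and Zfp264 was at 0.

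Of the listed genes, 30 to 33 were tested per comparison, and edgeR called 0 of them in each of the 5 comparisons of treatments and vehicles. Between the replicate sets 1 of 32 was called, Gatm (an enzyme of creatine synthesis), with a log2 difference of 1.07 (edgeR adjusted p = 0.0461) and levels that overlapped between the sets. The largest rise and fall among those tested were Zdbf2 (2.41, SE 1.75) and Peg13 (-0.86, SE 1.51) with SAG, Usp29 (1.56, SE 1.87) and Mkrn3 (-2.07, SE 1.19) with FGF2, and Usp29 (1.92, SE 2.39) and Airn (-2.25, SE 2.86) with FGF10. For FGF2 against FGF10 they were Zdbf2 (1.94, SE 1.81) and Mkrn3 (-1.37, SE 1.94), and for PBS against DMSO they were Asb4 (2.32, SE 3.18) and Usp29 (-2.19, SE 2.10). Between the sets they were Airn (3.71, SE 2.75) and Usp29 (-2.46, SE 2.10). All of these genes averaged under 20 CPM over the 17 libraries, and none passed the test.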

How the data were processed

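Per the labels and the methods, the authors primed RNA on its poly(A) tail (QuantSeq 3′ kit), removed BC1 transcripts, aligned reads with STAR to GRCm38 and deposited whole-number read counts per gene without normalization. The annotation, strand setting and use of molecular identifiers are not given in the sources used here, so PCR copies may be counted repeatedly. The 114 spike-in rows were left out. All 4 FGF2 libraries of the labels were used, although the methods state 3. The table heads the SAG columns Shh, and they were matched by the series title and number.

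The main test was edgeR 4.0.16 in R 4.3.3 (filterByExpr at its minimums of 10 and 15 counts, TMM, quasi-likelihood test). Adjustment was by Benjamini-Hochberg over the genes tested, with a call at an adjusted p under 0.05. Only the groups compared entered a fit. The standard error was derived from the F statistic, and log2 CPM used a prior count of 2. DESeq2 1.42.0 was an alternative. The test was also run on simulated counts, which varied less between libraries than these, so that run does not show its power here. In the comparisons of treatments and vehicles, p-values measure the spread between the authors' biological replicates, whose animals are not named. The split into replicate sets was seen in these same counts. Standard errors, p-values and calls between the sets therefore describe that split and test no condition. Libraries of a group were not duplicates (chi-square per degree of freedom of at least 149 over 21 pairs).

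All 10 members were named, with other imprinted genes by count, by domain, by call and by largest rise and fall, and the 5 genes most like Meg3. Members, lists and tests were chosen with earlier results of these data known. The deviations of same-numbered replicates correlated weakly, at 0.09 to 0.11 for FGF2 and PBS and -0.01 to 0.03 for SAG and DMSO. The values were 0.04 to 0.08 for FGF10 and PBS and 0.07 to 0.13 for FGF2 and FGF10. The best match was the own number in 2 of 4 pairs for FGF2 and PBS and 2 of 3 for SAG and DMSO. These values do not settle whether libraries were paired, and the main fits used no pairing. The single-gene result of 1 marker of the oligodendrocyte lineage is not reported here.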

Additional observations from a re-analysis of the deposited data

Results flagged for a closer look

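In the groups of 4 libraries (PBS and FGF2), the level of a library was compared with the others of its group by the gap to its nearest neighbour as a share of the group's range, with Dixon's critical value as the limit. Of 20 such groups of a member, 3 passed it, where chance gives about 1 in 20. Peg3 stood at 63.7 CPM in FGF2 replicate 4, against 101 to 106 CPM in the other 3. Rian stood at 16.1 CPM in FGF2 replicate 1 and at 0 in the other 3. Mirg stood at 0.042 CPM in FGF2 replicate 3, which is 2 reads, and at 0 in the other 3. For Rian and Mirg the share is 1 by construction, since the other 3 libraries had no reads, and the 2 reads of Mirg lie under the 3 reads that a count of 0 allows.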

How the results depend on the processing

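The number of members called was 0 in each comparison of treatments and vehicles under every alternative run, which were DESeq2's size factors, no filter, a mean of at least 10 counts, DESeq2's Wald test, an adjusted p under 0.01 with an absolute log2 fold change above 1, each library left out, all 5 groups in 1 fit, the replicate block and, in the FGF experiment, the set as a term or single sets. Between the replicate sets it was 3 (Meg3, Plagl1 and Grb10) under each alternative run except DESeq2's Wald test, which called 5, with Rian and Mirg added, and the cause was not tested. Over all genes, DESeq2's Wald test called 394 genes for SAG, 123 for FGF2, 102 for FGF10, 91 for FGF2 against FGF10, 194 for PBS against DMSO and 3103 between the sets, where edgeR called 8, 0, 0, 0, 0 and 568. Without a filter edgeR called 76, 0, 0, 2, 36 and 812 genes, and with a mean of at least 10 counts it called 42, 0, 0, 0, 4 and 856. With all 5 groups in the fit it called 4, 0, 0, 0 and 1 in the first 5 comparisons, and the replicate block gave 12 for SAG and 0 in the other 4.

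Of 386 refits of the log2 differences printed for single members, 31 turned the direction, all of differences that no fit called. For FGF2 against PBS, Plagl1 was -0.34 with the replicate block, -0.33 with the set as a term and -0.86 within replicates 3 and 4, and Ndn was -0.049 within replicates 1 and 2. With each library left out, the log2 difference ran from -0.62 to 0.026 for Peg3 and from -0.076 to 0.94 for Grb10 with SAG, from -0.65 to 0.14 for Meg3, from -0.63 to 0.49 for Plagl1 and from -0.32 to 0.68 for Grb10 with FGF2, and from -0.36 to 0.31 for Meg3, from -0.60 to 0.37 for Plagl1 and from -1.88 to 0.30 for Grb10 with FGF10. For PBS against DMSO it ran from -0.17 to 0.43 for Meg3 and from -0.81 to 0.069 for Grb10, and between the sets from -0.39 to 0.016 for H19. Between the sets it ran from -2.05 to -1.83 for Meg3, from -3.16 to -2.85 for Plagl1 and from 2.22 to 2.63 for Grb10. All 70 group means recomputed over raw totals or DESeq2's size factors moved by less than 1 SD. Genes such as Rian, Mirg and Dlk1, with no reads in some libraries and up to 992 in others, limit what these libraries can show of them.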
